A study of Mus musculus with 2 samples.

Results

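Mir106b, Mir93 and Mir25 in the Mir106b-25 cluster, and Mir106a, Mir18b, Mir20b, Mir19b-2, Mir92-2 and Mir363 in the Mir106a-363 cluster, are the microRNA genes of the paralogs of the mouse Mir17 cluster. These 9 loci were taken by name from the 1973 microRNA loci of the count tables, and all 9 were found. The naming rule uses no measured value, but the set was proposed with earlier results of these data known. They were measured by small-RNA sequencing of total RNA from facial prominences, the swellings of mesenchyme and covering epithelium that form the face, of B6NCrl mouse embryos of both sexes at day 11.5. The samples form 1 untreated group of 2 biological replicates, each a pool of tissue: 88 embryos in replicate 2 and 109 embryos in replicate 1. The labels give both pools the same donor entry and no genotype other than the strain, so the comparisons are between loci in the same libraries and between the pools. Levels are sense-strand counts scaled to a total of 1e+06 over all microRNA loci (CPM), as the mean ± SD over n = 2. A pair of libraries cannot reach a two-sided exact p below 0.5, so no p-values are given.

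A microRNA silences messenger RNAs that pair with its seed, bases 2 to 8 from its 5′ end, so microRNAs with the same seed are expected to share many targets. The Mir17 cluster and its paralogs encode 4 such seed families, named after miR-17, miR-18, miR-19 and miR-25/92. In mammals they are known for restraining inhibitors of the cell cycle and of apoptosis, such as Cdkn1a and Bcl2l11, and E2F factors are among both their regulators and their targets. In mice, loss of the Mir17 cluster impairs growth and survival and can cause orofacial clefts. Loss of either paralog cluster alone is tolerated, while loss of the Mir17 and Mir106b-25 clusters together is lethal to the embryo.

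The mature sequence of the arm that gives each locus its family name is shown with the seed in capitals, to make visible which loci share a seed and how alike the rest of each sequence is. All 9 members matched a RefSeq entry (GRCm38.p6). The deposited counts are per locus and do not separate the arms of a hairpin.
miR-106b-5p: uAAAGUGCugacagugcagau
miR-93-5p: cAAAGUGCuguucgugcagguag
miR-106a-5p: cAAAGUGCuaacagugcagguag
miR-20b-5p: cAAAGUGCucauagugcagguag
miR-18b-5p: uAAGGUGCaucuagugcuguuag
miR-19b-3p: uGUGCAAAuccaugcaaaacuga
miR-25-3p: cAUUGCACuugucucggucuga
miR-92a-3p: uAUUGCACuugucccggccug
miR-363-3p: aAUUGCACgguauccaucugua

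Mir106b, Mir93, Mir106a and Mir20b have the miR-17 seed, Mir25, Mir92-2 and Mir363 the miR-25/92 seed, Mir18b the miR-18 seed and Mir19b-2 the miR-19 seed. These arms are 21 to 23 bases long, so levels were compared between loci without a correction for length. Substitutions are counted from 1 at the 5′ end, with the base of the Mir17 cluster's microRNA first. The miR-106a sequence differs from miR-17 by 1 substitution, U10A. The miR-106b sequence differs from miR-17 by 3 over the 21 bases they share in length, C1U, U10G and G20A. Against miR-20a, miR-20b has U1C and U10C, and miR-18b differs from miR-18a by A18U and A20U. None of these substitutions lies in the seed.

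For 7 of the 9 members the sequence shown was in no other annotated mouse hairpin. The exceptions were miR-92a-3p, which Mir92-2 shares with Mir92-1, and miR-19b-3p, which Mir19b-2 shares with Mir19b-1. Both hairpins of each pair are given with the stretch they share in capitals, since a read that lies within it cannot be assigned to either locus.
Mir92-2: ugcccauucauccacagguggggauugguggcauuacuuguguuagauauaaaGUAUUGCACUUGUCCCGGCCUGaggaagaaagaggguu
Mir92-1: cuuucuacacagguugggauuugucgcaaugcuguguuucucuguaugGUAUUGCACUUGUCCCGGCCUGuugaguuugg
Mir19b-2: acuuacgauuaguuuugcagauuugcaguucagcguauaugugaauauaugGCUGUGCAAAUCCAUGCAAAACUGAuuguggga
Mir19b-1: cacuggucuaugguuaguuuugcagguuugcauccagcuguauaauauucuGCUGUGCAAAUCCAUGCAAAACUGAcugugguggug

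The shared stretch is 22 bases in the Mir92 pair and 25 bases in the Mir19b pair. In the other 7 members the longest stretch shared with any other hairpin was 12 to 17 bases. The base that follows the stretch differs in both pairs, so a read that runs past it can be placed at 1 locus. In both pairs the mature sequence ends where the stretch ends, so such a placement can rest on the few bases after it. Whether those bases came from the hairpin, and so whether the placement is right, was not tested. Reads placed at several positions were kept apart in the tables, 1388721 in replicate 2 and 1081615 in replicate 1, and are not divided among loci. The counts of Mir92-2, Mir92-1, Mir19b-2 and Mir19b-1 are therefore incomplete by amounts that these tables do not give, and so is every sum, share and ratio below that contains one of them.

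The clusters differ in where they lie (GENCODE M21, GRCm38). The Mir106b-25 cluster spans 498 bases on the minus strand of chromosome 5, with Mir106b at 138165737 to 138165818, Mir93 at 138165523 to 138165610 and Mir25 at 138165321 to 138165404. All 3 hairpins lie in intron 13 of the protein-coding transcript of Mcm7 that carries a CCDS tag, which has 15 exons, and on its strand. Mcm7 encodes a subunit of the replicative DNA helicase. Mir93 and Mir25, but not Mir106b, also lie in an exon of a shorter Mcm7 transcript annotated as a retained intron.

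The Mir106a-363 cluster spans 875 bases on the minus strand of chromosome X. It begins with Mir106a (52742503 to 52742567), followed by Mir18b (52742331 to 52742413) and Mir20b (52742113 to 52742192). Mir19b-2 (52741983 to 52742066), Mir92-2 (52741838 to 52741928) and Mir363 (52741693 to 52741767) follow. The 3′ end of the noncoding gene Kis2, on the same strand, covers up to 5 bases at the start of Mir106a. No annotated host gene overlaps the other 5 hairpins. The 6 loci of the Mir17 cluster lie in exon 2 of the noncoding host gene Mir17hg on chromosome 14, over 836 bases.

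Sense counts over all loci summed to 2319881 for replicate 2, where a single count is worth 0.431 CPM, and to 1941745 for replicate 1, where it is worth 0.515 CPM. Intervals given here are computed from read counts, so they cover counting error only and no biological spread. No molecular identifiers are named, so copies made in amplification may count as separate reads and the intervals may be too narrow. Marker loci were counted beside the tissue label: all 5 mesenchymal and all 7 epithelial loci had at least 10 counts in both libraries. So did the 1 endothelial locus, the 2 leukocyte loci found, 6 of 9 pluripotency loci and 3 of 7 neural loci. A bar this low therefore does not test the label. The pools were not alike in every list. The striated-muscle loci summed to 1494 CPM in replicate 2, against 628 CPM in replicate 1, with 5 of 8 at 10 or more counts in both libraries and Mir133a-1 and Mir133a-2 at 0. Reads placed at several positions are left out of all marker counts, so a 0 need not mean absence. The 2 erythroid loci, both detected, summed to 593 CPM in replicate 2, against 264 CPM in replicate 1. These are log2 ratios of 1.25 and 1.17, while the other lists ran from -0.34 (neural) to 0.26 (leukocyte). No member went past 0.27, and the part of these lists in the members' ratios was not tested. In tissue pools, more cells that express a microRNA and more of it per cell cannot be told apart.

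The Mir106b-25 cluster was the more abundant of the paralogs by reads placed at a single position. Its 3 loci took 2.87% of the sense counts in replicate 2 (95% Clopper-Pearson interval 2.85 to 2.89) and 2.92% in replicate 1 (2.89 to 2.94). Nearly all of this came from Mir93 and Mir106b. Mir93 had 35991 counts in replicate 2 and 30622 in replicate 1, or 15642 ± 181 CPM, and ranked 14 among all loci. Mir106b had 28380 and 24326 counts in the same libraries, or 12381 ± 208 CPM, at rank 22. All ranks and CPM leave out reads placed at several positions, 33.3% of mapped reads in replicate 2 and 32.9% in replicate 1. Loci with copies elsewhere may therefore be ranked too low, and the members too high.

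Mir25, the last hairpin of the cluster, stood far below its neighbours. It had 2219 counts in replicate 2 and 1712 in replicate 1, or 919 ± 52.9 CPM, at rank 113. Mir25 supplied 3.18% ± 0.220 of the cluster's counts, against 54.0% ± 0.00246 for Mir93 and 42.8% ± 0.222 for Mir106b. Its sequence has no identical copy in another annotated hairpin, and the longest stretch it shares with another, Mir92-2, is 12 bases. Only exact matches in annotated hairpins were looked for. The cause of its lower level, including any loss of reads placed at several positions, was not tested. All 3 pairs of loci in the cluster differed by more than the pools did for either locus, in each library.

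The 6 loci of the Mir106a-363 cluster together took 0.666% of the counts in replicate 2 (0.656 to 0.677) and 0.658% in replicate 1 (0.646 to 0.669). The sum for Mir106b-25 exceeded the sum for Mir106a-363 by a log2 ratio of 2.11 in replicate 2 and 2.15 in replicate 1, or 4.37-fold on average. Both clusters changed by far less between the pools, with log2 ratios of -0.02 for Mir106b-25 and 0.02 for Mir106a-363. Without Mir92-2 and Mir19b-2, whose counts are incomplete, the log2 ratio between the clusters was 2.25. Leaving out loci of Mir106a-363 alone can only raise this ratio. Reads missing from Mir92-2 and Mir19b-2 would lower it, by an amount that is unknown.

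Mir106a, the first hairpin of the X-linked cluster, was its most abundant locus by reads placed at a single position. It had 5720 counts in replicate 2 and 4818 in replicate 1, or 2473 ± 11.1 CPM, at rank 73. Mir363, the last hairpin and a member of the miR-25/92 family, followed with 4433 and 3785 counts in those libraries, or 1930 ± 27.2 CPM. Mir20b had 3442 and 2820 counts, or 1468 ± 22.2 CPM. These 3 loci supplied 37.4% ± 0.510, 29.2% ± 0.678 and 22.2% ± 0.132 of the cluster's counts.

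The other 3 loci of the cluster were low by reads placed at a single position. For Mir92-2 and Mir19b-2 the full level is unknown, since reads within their shared stretches are left out. Mir92-2 had 1266 counts in replicate 2 and 881 in replicate 1, or 500 ± 65.1 CPM. Mir18b had 560 and 436 counts in those libraries, or 233 ± 11.9 CPM. Mir19b-2 had the lowest such count of all 9 members, with 33 counts in replicate 2 and 28 in replicate 1, or 14.3 ± 0.138 CPM, at rank 312. All 9 members had at least 10 counts in both libraries, and 5 of them ranked among the first 100 loci.

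**Figure D1:**
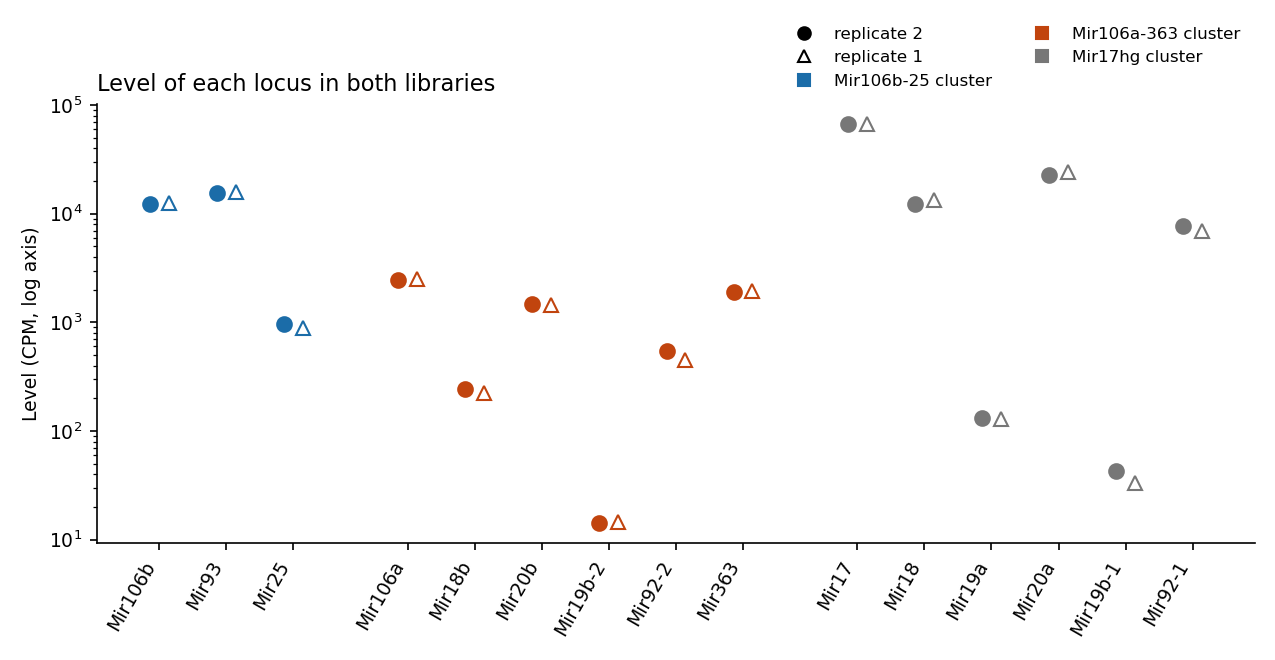
Level of each locus in CPM (log axis), with filled circles for replicate 2 and open triangles for replicate 1; colours mark the Mir106b-25 and Mir106a-363 clusters and, in grey, the Mir17hg cluster. Both libraries nearly coincide for every locus. By reads placed at a single position, Mir93 and Mir106b stand above all other members, and the miR-19 loci are the lowest of their clusters. Counts of Mir19b-1, Mir19b-2, Mir92-1 and Mir92-2 are incomplete.

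Ordered by reads placed at a single position, the members ran Mir93, Mir106b, Mir106a, Mir363, Mir20b, Mir25, Mir92-2, Mir18b and Mir19b-2. Each neighbour in this order differed by more than the pools did for either locus, in each library. The narrowest step was Mir93 over Mir106b, with a log2 ratio of 0.34 in replicate 2 and 0.33 in replicate 1. The widest by these counts was Mir18b over Mir19b-2, at 4.08 and 3.96 in those libraries. Reads missing from Mir19b-2 and Mir92-2 leave their true places in the order unsettled. Mir106b over Mir106a, the step that parts the miR-17-seed loci of the clusters, was 2.31 and 2.34. Within the Mir106a-363 cluster all 15 pairs of loci also differed by more than the pools did, by the same incomplete counts for Mir92-2 and Mir19b-2. How well each sequence is ligated and amplified also enters such comparisons between loci, and its part was not tested.

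Levels did not follow the order of the hairpins. In the Mir106b-25 cluster, with gaps of 126 and 118 bases between hairpins, the highest locus was the second and the lowest the last. In the Mir106a-363 cluster the gaps were 46 to 138 bases. By reads placed at a single position, Mir363, last of its 6 hairpins, was the second most abundant, and Mir19b-2, the fourth, was the lowest.

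**Figure D2:**
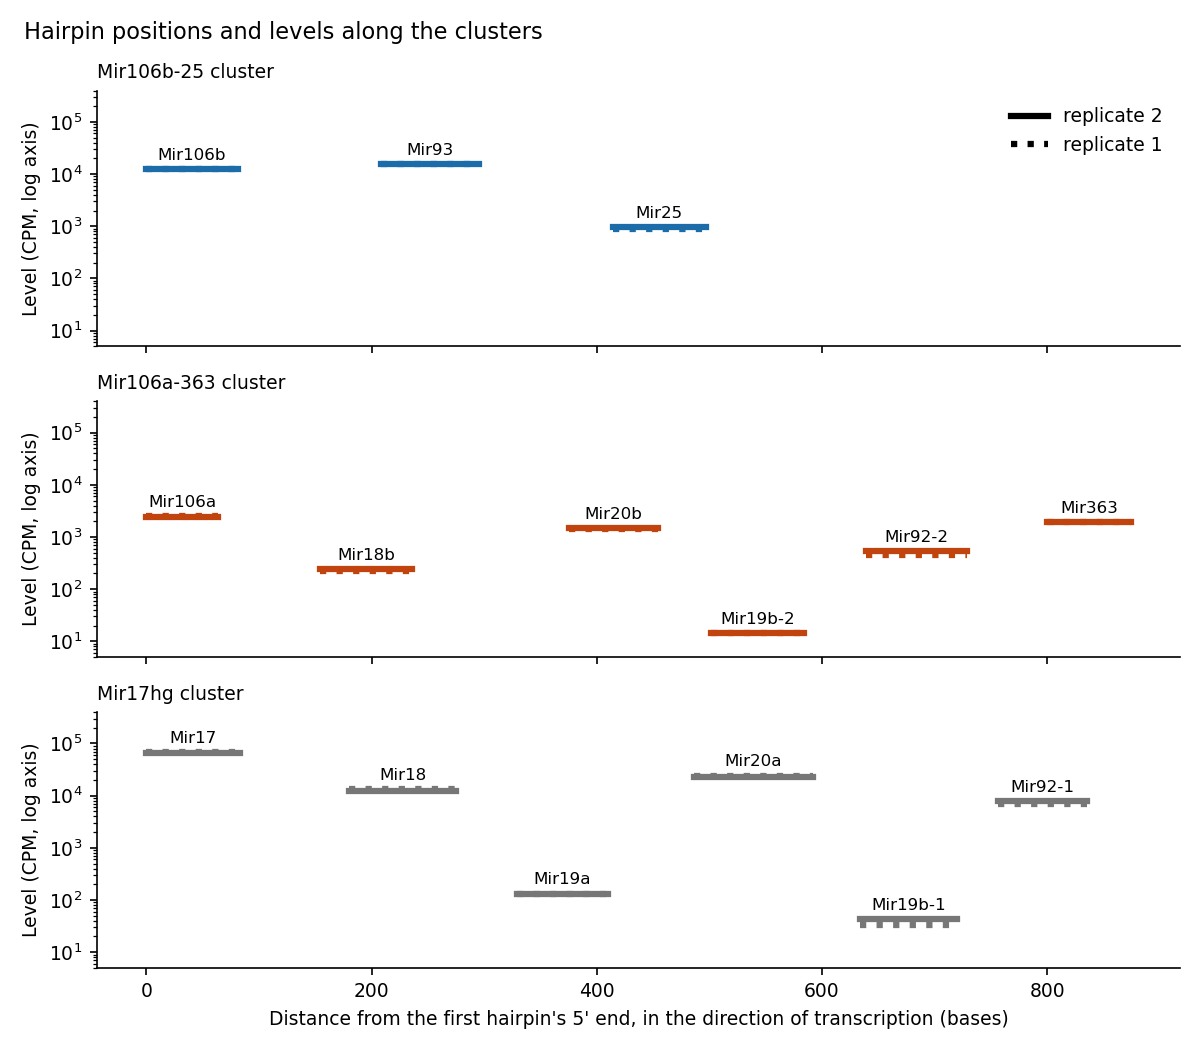
Hairpins of the 3 clusters drawn to scale by distance in bases from the first hairpin's 5′ end, in the direction of transcription, at the height of their level in CPM (log axis); solid lines are replicate 2 and dotted lines replicate 1. Mir25 lies below both upstream hairpins, whereas Mir363 at the far end of its cluster lies near Mir106a at the start.

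By seed family, the clusters had unlike make-up. Families are counted here by whole loci, so reads of the arm without the seed are included. The miR-17 seed accounted for 96.8% ± 0.220 of the counts of Mir106b-25, for 59.6% ± 0.379 of those of Mir106a-363 and for 81.7% ± 0.187 of those of Mir17hg. The miR-25/92 seed accounted for 36.7% ± 0.235 in Mir106a-363, against 3.18% ± 0.220 in Mir106b-25 and 6.61% ± 0.657 in Mir17hg. In Mir17hg it is Mir92-1 alone, and in Mir106a-363 it includes Mir92-2, both with incomplete counts. Missing reads of the Mir92 and Mir19b loci could move the miR-25/92 share of these clusters either way. The same reads would lower their miR-17 and miR-18 shares. The miR-18 seed made up 3.52% ± 0.148 of Mir106a-363 and 11.6% ± 0.479 of Mir17hg. By reads placed at a single position, the miR-19 seed was low in both clusters that carry it, at 0.216% ± 0.00407 of Mir106a-363 and 0.153% ± 0.00975 of Mir17hg. Mir19a of Mir17hg, whose mature sequence is in no other annotated hairpin, stood at 132 ± 1.75 CPM. Reads missing from Mir19b-1 and Mir19b-2 leave the full level of this family unknown, and their part in its low share was not tested.

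Summed over all loci with the miR-17 seed, the 4 members gave 31964 ± 378 CPM, or 26.1% ± 0.108 of the family. Of the family, Mir106b-25 supplied 22.9% ± 0.0472 and Mir106a-363 supplied 3.22% ± 0.0604, while Mir17hg supplied the remaining 73.9% ± 0.108. Of the miR-25/92 seed, the members supplied 25% ± 1.40 of the counts placed at 1 position, as 3349 ± 90.8 CPM. Mir92-1 made up 54.6% ± 0.0823 of the same counts, so the reads missing from it and from Mir92-2 leave the members' true share of this family unknown. The reads still counted at Mir92-1 and Mir92-2 may come from the arm without the seed, whose part was not tested. Here Mir106a-363 contributed the larger part, 18.2% ± 1.22, against 6.86% ± 0.174 for Mir106b-25. Of the miR-18 seed, Mir18b supplied 1.79% ± 0.189.

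**Figure D3:**
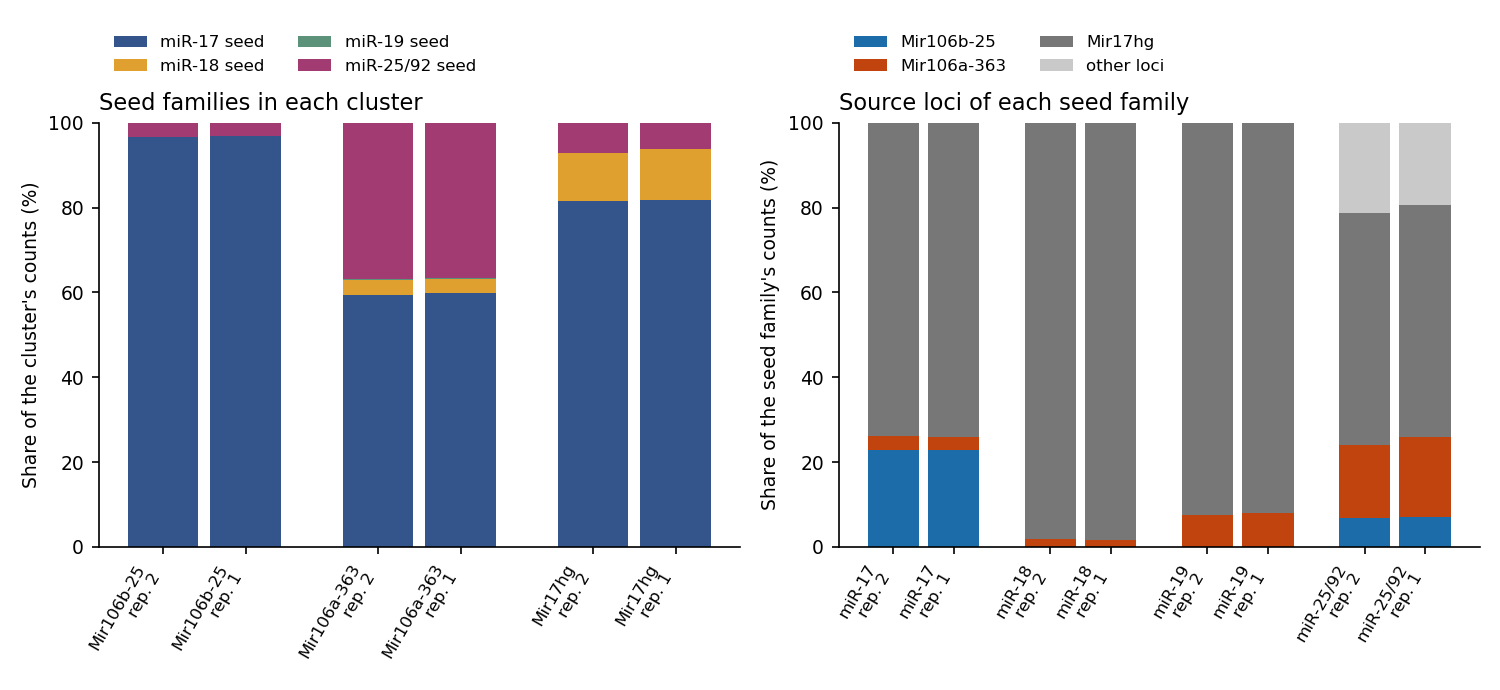
Left, share of each cluster's counts (%) by seed family; right, share of each seed family's counts (%) by source, for replicate 2 and replicate 1 side by side. Families are counted by whole loci, both arms of each hairpin together. The miR-25/92 seed makes up 36.7% of the Mir106a-363 counts on average and 3.18% of the Mir106b-25 counts. Mir92-1 and Mir92-2 are counted without reads placed at several positions. Mir106b-25 supplies 22.9% of the miR-17-seed counts.

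Every member was below its Mir17hg counterpart, the locus of the same family with which it was paired, and each difference exceeded that between the pools for both loci. Closest was Mir93 over Mir20a, with a log2 ratio of -0.55 in replicate 2 and -0.62 in replicate 1, or 1.5-fold lower. Mir106b was 5.43-fold below Mir17, with log2 ratios of -2.45 and -2.43 in those libraries. Mir25 was 7.96-fold below Mir92-1, at -3.02 and -2.97, by the counts placed at 1 position. Reads missing from Mir92-1 would widen this gap.

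In the X-linked cluster the gaps were wider for the miR-17 family. Mir106a, which differs from Mir17 by U10A alone, was 27.2-fold lower than Mir17 (log2 ratios -4.76 in replicate 2 and -4.77 in replicate 1). Mir20b was 16-fold below Mir20a (-3.94 and -4.06 in those libraries). Mir18b was 55.0-fold below Mir18 (-5.67 and -5.89), the widest gap of the 9 pairs. Mir363 was 3.79-fold below Mir92-1 (-2.02 and -1.82), again a gap that reads missing from Mir92-1 would widen. For Mir92-2 over Mir92-1 the log2 ratio was -3.88 ± 0.07, and for Mir19b-2 over Mir19b-1 it was -1.40 ± 0.26. Since both loci of these last pairs share their mature sequence, the ratios rest on the reads that could be placed at 1 position.

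**Figure D4:**
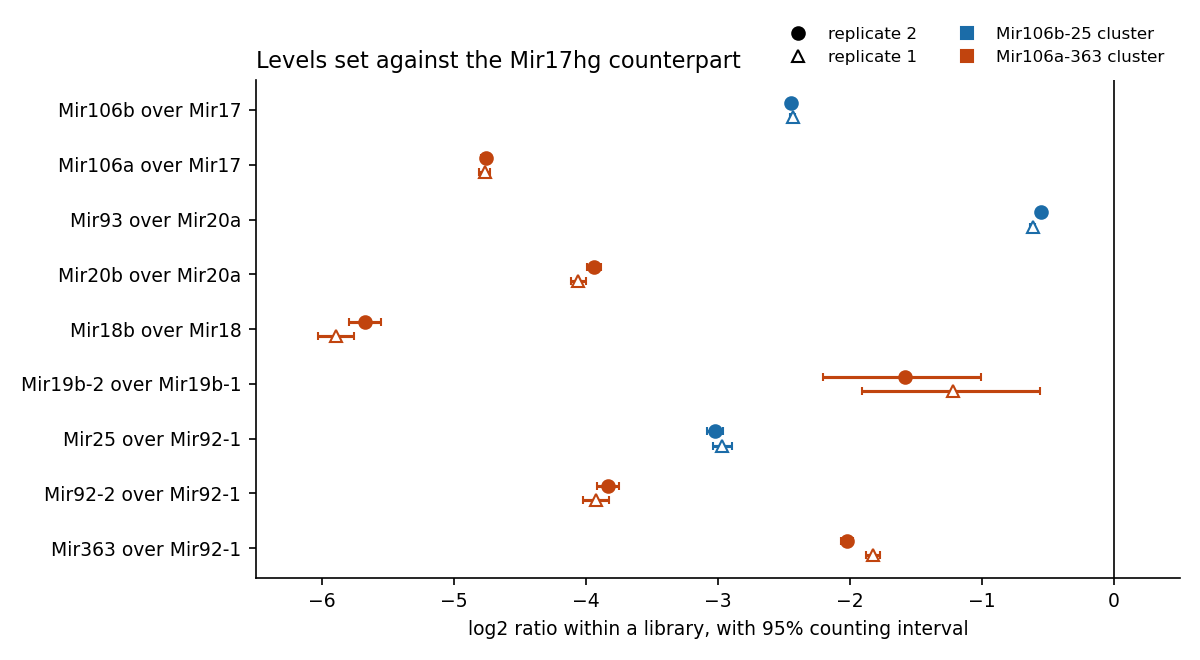
log2 ratio of each member over its Mir17hg counterpart within a library, with the 95% counting interval; filled circles are replicate 2, open triangles replicate 1, and the line at 0 marks equal levels. All points lie below 0, from Mir93 at -0.58 on average to Mir18b at -5.78.

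Outside the 3 clusters, the RefSeq table held 4 further loci with a seed of the members. Mir6383, with the miR-17 seed, had 0 counts in both libraries, and 3 counts, the limit that a 0 allows, would be 1.29 CPM in replicate 2 and 1.55 CPM in replicate 1. Mir367, with the miR-25/92 seed, had 2 counts in replicate 2 and 0 in replicate 1. Mir92b stood at 2625 CPM (replicate 2) and 2039 CPM (replicate 1), and Mir32 at 399 and 415 CPM in those libraries. Both carry the miR-25/92 seed and supplied 20.4% ± 1.31 of that family. Among the miR-25/92 loci, 2 steps in the order of levels did not exceed the difference between the pools. These were Mir92b over Mir363 (log2 ratio 0.46 in replicate 2 and 0.07 in replicate 1) and Mir92-2 over Mir32 (0.45 and 0.13).

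Between the pools the members were nearly alike. Of the 8 members whose counts averaged 100 or more, 0 were past 2-fold, against 1.95% of the 257 loci at that depth. With a background so low, 0 of 8 does not set the members apart. Their median absolute log2 ratio was 0.03, against 0.14 over the 257 loci, which include these 8. The comparison was not matched for depth. The 8 members averaged from 498 (Mir18b) to 33306.5 counts (Mir93), while the 257 loci start at 100 counts, where counting error is larger. It therefore does not show the members to be steadier than other loci. Of all 9 members, 4 were higher and 5 lower in replicate 2.

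The largest difference among the members was that of Mir92-2, at 546 CPM (replicate 2) and 454 CPM (replicate 1), with a log2 ratio of 0.27 (95% interval 0.14 to 0.39). Of the 257 loci, 22.2% had a larger absolute ratio. Mir25, at 957 and 882 CPM in those libraries, had a log2 ratio of 0.12 (0.03 to 0.21). The intervals of Mir106b (-0.03, from -0.06 to -0.01) and Mir93 (-0.02, from -0.05 to -0.002) lay just below 0, and are narrow because these are the loci with the highest counts among the members. For the other 5 members the interval included 0, and for Mir19b-2 it ran from -0.79 to 0.76.

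Among loci with the miR-25/92 seed, Mir92-1 (log2 ratio 0.17) and Mir92b (0.36) were also higher in replicate 2, while Mir363 (-0.03) and Mir32 (-0.06) were not.

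**Figure D5:**
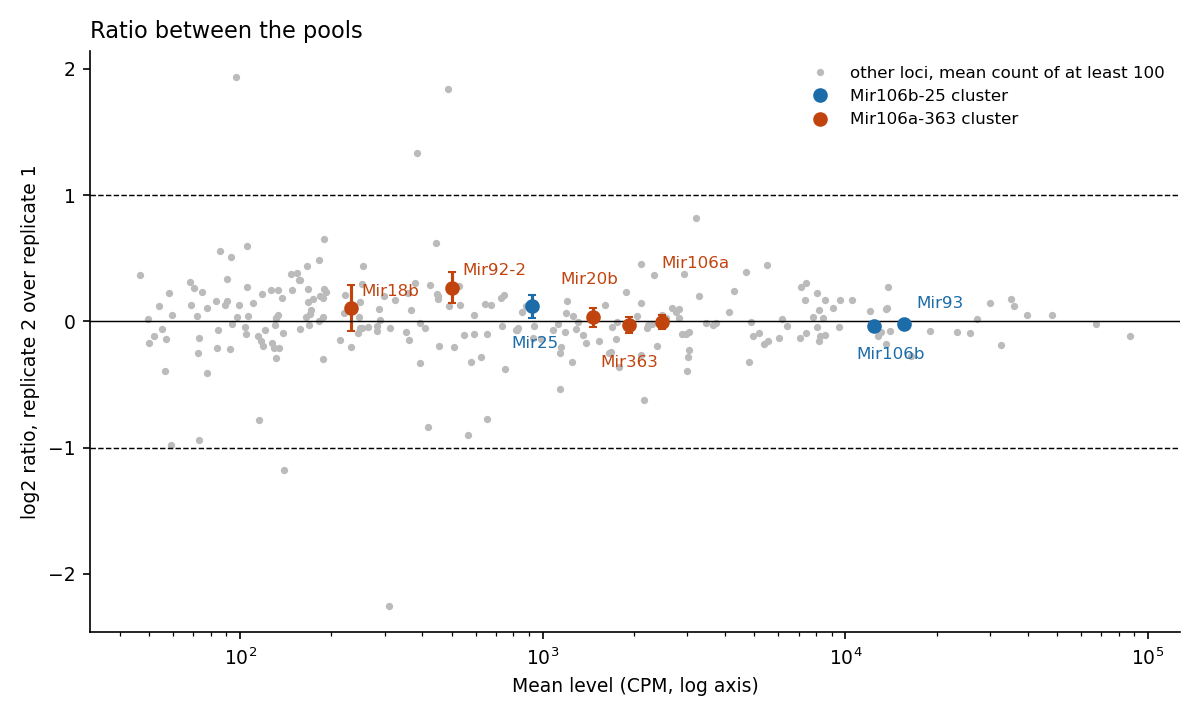
log2 ratio of replicate 2 over replicate 1 against mean level in CPM (log axis) for the 8 members whose counts averaged 100 or more, with 95% counting intervals, and for other such loci in grey; dashed lines mark 2-fold. The members lie between -0.03 and 0.27, well inside the dashed lines.

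By level, measured as the distance of log2(CPM + 1) over both libraries, the loci nearest to Mir93 were Mirlet7g (distance 0.20) and Mir183 (0.22). Nearest to Mir106b were Mir18 (0.09) and Mir744 (0.09), and nearest to Mir106a were Mir27b (0.04) and Mir301 (0.07). A likeness of level over 2 libraries of 1 tissue is a description only. Of the counts at the 120 X-linked loci, the Mir106a-363 cluster took 9.30% in replicate 2 and 8.61% in replicate 1. Mir106a, Mir363 and Mir20b ranked 5, 8 and 9 among those loci. No member and no locus of Mir17hg had a count on the opposite strand in either library.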

How the data were processed

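Per the notes deposited with each table, the authors made raw counts per microRNA gene from alignments to mm10 with GENCODE M4. Which aligner and counter were run is not given in the sources used here. The sense column was used, and the 4 lines that name no gene stayed out of library sizes. They held 65.8% of 6781929 reads in replicate 2 and 59.2% of 4755968 in replicate 1, including 20.5% and 22.7% placed at several positions. Identifiers were matched to GENCODE M21 without versions (1894 of 1973 matched, and all 9 members with the version).

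CPM used the sense total. Loci were said to differ by more than the pools when the log2 ratio between them was large enough: its size had to exceed, in each library, the absolute log2 ratio between pools of both loci. Intervals are exact (Clopper-Pearson) binomial at 95%. The 2-fold limit was applied to loci that averaged 100 counts or more. Seeds and hairpins came from RefSeq (GRCm38.p6). The members and lists were chosen with earlier results of these data known. Loci named were the members, the Mir17hg loci, other loci with a member's seed and the nearest in level, by a fixed rule; Mir367 and Mir6383, below the rule's minimum of 10 counts, were added to complete the seed list. Alternative scalings came from DESeq2 1.42.0 and from TMM in edgeR 4.0.16 (R 4.3.3). Tables and intervals were made with Python 3.11.15 and scipy 1.17.1 and plots with matplotlib 3.10.9. The 2-fold step was tested on simulated data. Nothing in the labels says whether the pools came from separate litters or days.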

Additional observations from a re-analysis of the deposited data

How the results depend on the processing

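No paired analysis was possible because the study has a single group. With the column irrespective of strand, whose total is larger, the share of Mir106b-25 was 2.80% in place of 2.89%, and that of Mir106a-363 was 0.641% in place of 0.662%. Per total of all reads in the tables the shares were 1.09% and 0.248%. Without Mir92-2 and Mir19b-2, which have an identical mature copy, the share of Mir106a-363 was 0.610% and the log2 ratio of Mir106b-25 to Mir106a-363 was 2.25 in place of 2.13. The direction of both shifts was fixed, since only loci of Mir106a-363 were dropped, and missing reads would act the other way. With either replicate left out, the share of Mir106b-25 ran from 2.87% to 2.92%, that of Mir106a-363 from 0.658% to 0.666% and the log2 ratio from 2.11 to 2.15. The count of members past 2-fold was 0 under each scaling, strand column and count minimum tried. TMM and DESeq2 scaling shift every ratio between the pools by the same small constant, too small to turn any member's sign. For single loci, 6 levels moved by more than 1 SD under the column irrespective of strand. With 2 replicates, leaving out either cannot move a mean by more than 1 SD, and ratios between loci without opposite-strand counts cannot change with the strand column, so those settings say nothing about stability. Mir19b-2 had the lowest counts of the members, 33 in replicate 2 and 28 in replicate 1. Its reads within the stretch shared with Mir19b-1 are left out at any depth.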
